A study of Mus musculus with 12 samples.

Results

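The mitochondrial solute carriers of the SLC25 family were examined in mouse macrophages treated for 1 h with house dust mite allergen. Members were the rows of the count table whose symbol is Slc25a followed by digits only, 47 of 50559 rows, and the 38 with a mean of at least 0.5 CPM (counts per M counted reads) over the 12 libraries are described. Of all rows, 12352 reached that level. The cells were bone marrow-derived macrophages of C57BL/6 mice, grown from cultured marrow, in a study of the scaffold protein AKAP79/150. The HDM group (6 libraries) received the allergen (HDM), an extract that provokes airway allergy, and the vehicle group (6 libraries) received vehicle for the same 1 h. The labels name no genotype beyond the strain and no age for either group. They leave unstated whether each library is a separate animal or culture, and the p-values describe only the variation among these 12 libraries, part of which may be technical.

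SLC25 carriers are membrane proteins built from repeated pairs of transmembrane helices, and most of them sit in the inner mitochondrial membrane. They exchange nucleotides, phosphate, carboxylates, amino acids, cofactors and iron between the cytosol and the matrix, and so link glycolysis, respiration and biosynthesis. In macrophages, citrate leaving the mitochondrion through such a carrier feeds fatty acid synthesis, and a related metabolite, itaconate, is made in the matrix after inflammatory stimulation.

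After 1 h of HDM, 3 of the 38 described carriers rose and 1 fell in the fit with treatment as the only term. Slc25a25, a calcium-regulated carrier that exchanges ATP-Mg for phosphate, was 2.88-fold higher. Slc25a33, a carrier of pyrimidine nucleotides, and Slc25a22, a glutamate carrier, rose by 0.31 and 0.16 on the log2 scale, and Slc25a28, the iron carrier mitoferrin 2, fell by 0.19 on the log2 scale. The phosphate carrier Slc25a3 and the ADP/ATP carriers Slc25a4 and Slc25a5, among the most highly expressed of the described members, had log2 fold changes between -0.01 and 0.00. Calls were made in edgeR's quasi-likelihood test with Benjamini-Hochberg adjustment over 13530 tested genes, at an adjusted p below 0.05, and 5.37% of these genes were called, 2.9% as higher and 2.47% as lower. The 34 other members did not pass the test, and 5 of the 38 had an unadjusted p under 0.05. With the library number (1 to 6 in each group) as a further term, Slc25a44 and Slc25a32 were also called as lower. Their log2 fold changes in that fit were -0.31 (edgeR adjusted p = 3.53e-07) and -0.17 (edgeR adjusted p = 0.00276). That fit called 14.7% of all tested genes. The median log2 fold change was -0.0077 over the members and -0.00477 over all tested genes, and the median absolute log2 fold change was 0.0421 over the members and 0.0591 over all tested genes.

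**Figure D1:**
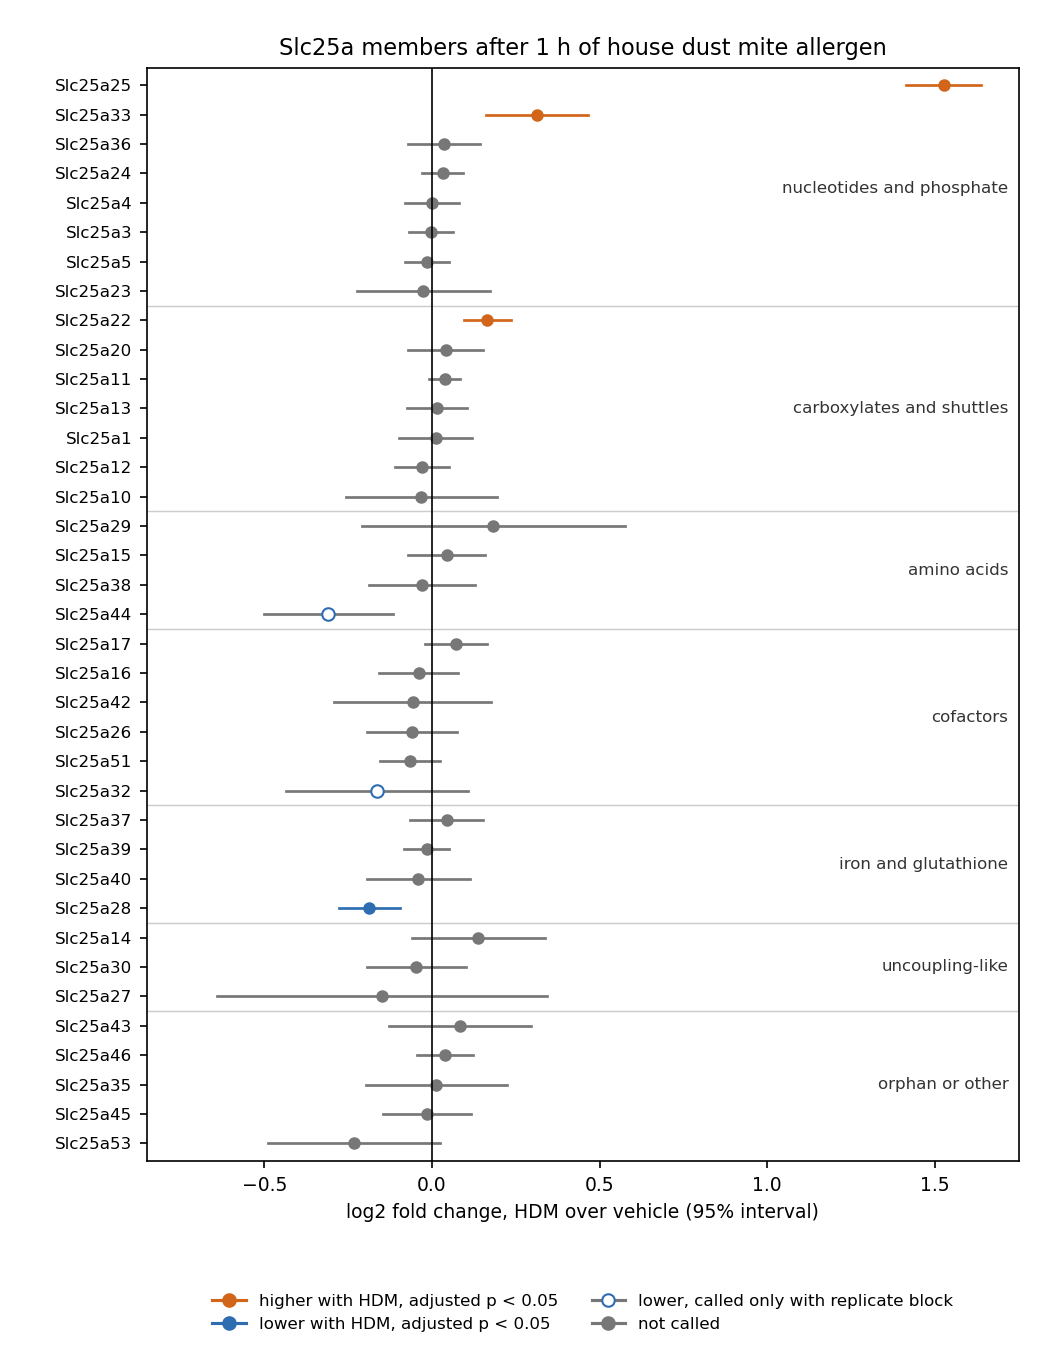
Log2 fold change of 37 of the 38 described carriers, HDM over vehicle, with its 95% interval, grouped by role (orange, higher; blue, lower; grey, not called; open circle, lower and called only when the library number was a term of the fit). Slc25a25 lies at 1.53, and the others shown lie between -0.31 and 0.31.

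Counted reads per library ran from 19.76 to 119.71 M with HDM (median 41.11 M) and from 19.69 to 62.41 M with vehicle (median 41.71 M). The 47 carriers together took 0.217% ± 0.00277 of the reads in HDM libraries and 0.219% ± 0.00296 in vehicle libraries (SD, n = 6 each). Macrophage markers (8 genes) summed to 17876 to 21349 CPM with HDM and 16802 to 21062 CPM with vehicle, and 1 of them, Cd14, rose (log2 fold change 1.23, edgeR adjusted p = 0.000162). The summed levels of other blood cell types were low in both groups. Erythroid markers (9 genes, 4 without a read) summed to 0.217 to 0.452 CPM with HDM and 0.142 to 0.411 CPM with vehicle, neutrophil markers (9 genes, 1 without a read) to 4.02 to 6.58 CPM with HDM and 3.56 to 6.64 CPM with vehicle, lymphocyte markers (5 genes) to at most 0.133 CPM with HDM and 0.189 CPM with vehicle, and mast cell and basophil markers (4 genes, 2 without a read) to at most 2.26 CPM with HDM and 2.15 CPM with vehicle. The libraries numbered 5 and 6 of both treatments stood apart from those numbered 1 to 4: 36.4% of tested genes had both groups' libraries 5 and 6 on the same side of all of libraries 1 to 4. Library number was therefore also fitted as a term (the replicate block), which called 14.7% of tested genes, and each carrier is given with that fit where its call changed.

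Slc25a25 was the carrier with the largest change. It belongs to the subfamily of ATP-Mg/phosphate carriers whose cytosolic domain binds calcium and which adjust the adenine nucleotide content of the matrix. Its level in HDM libraries 1 to 6 was 28.4, 29.7, 26.3, 27.8, 28.7 and 29.0 CPM, against 10.3, 9.91, 10.8, 9.91, 9.11 and 8.93 CPM in vehicle libraries 1 to 6. Every HDM library lay above every vehicle library, and the groups were far apart relative to the spread within each. The means were 28.3 ± 1.19 CPM with HDM and 9.82 ± 0.693 CPM with vehicle (SD, n = 6 each), resting on 8641 and 2484 reads, and the log2 fold change was 1.53 ± 0.05 (SE; edgeR adjusted p = 1.64e-09), a fold of 2.88 with a 95% interval of 2.67 to 3.11. Its p-value was the second smallest of the 13530 tested genes (rank 2). Within each library number the log2 difference lay between 1.29 and 1.70.

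Because Slc25a25 rose far more than any other carrier, the 250 bases upstream of its transcription starts are shown. RefSeq (GRCm38.p6) gives 3 starts, all on the minus strand of chromosome 2, at the regions chr2:32451471-32451720, chr2:32431152-32431401 and chr2:32424067-32424316. Capitals mark the cAMP response element (CRE, TGACGTCA), the sequence bound by CREB-family factors.
Slc25a25 start 1: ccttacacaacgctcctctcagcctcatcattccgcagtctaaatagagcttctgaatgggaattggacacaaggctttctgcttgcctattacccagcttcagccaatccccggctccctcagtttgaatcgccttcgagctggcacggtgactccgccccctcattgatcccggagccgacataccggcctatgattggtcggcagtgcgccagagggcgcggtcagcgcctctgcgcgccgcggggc
Slc25a25 start 2: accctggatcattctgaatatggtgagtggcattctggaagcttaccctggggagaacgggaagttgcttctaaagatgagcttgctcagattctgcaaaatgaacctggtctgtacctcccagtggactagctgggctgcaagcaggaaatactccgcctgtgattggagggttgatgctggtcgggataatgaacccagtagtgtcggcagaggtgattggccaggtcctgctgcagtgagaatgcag
Slc25a25 start 3: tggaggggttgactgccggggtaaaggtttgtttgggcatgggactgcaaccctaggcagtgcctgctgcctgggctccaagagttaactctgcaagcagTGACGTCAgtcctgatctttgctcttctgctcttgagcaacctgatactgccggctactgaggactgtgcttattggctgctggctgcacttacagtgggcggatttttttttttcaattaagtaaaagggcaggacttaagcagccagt
The full CRE occurred in the third window, 150 bases before the start, and in neither of the others. Across all 32841 mouse windows of this length 1.55% held it on either strand. None of the 3 windows held the AP-1 letters TGANTCA, present in 6.75% of all windows, or the NF-kB pattern of GGG, any 5 bases and CC, present in 45.8%. Counts per gene do not tell which of the 3 starts was used, and a match of letters does not show binding.

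For comparison, windows are shown for both pyrimidine nucleotide carriers, Slc25a33, which rose, and Slc25a36, which was not called. They lie on minus strands at chr4:149774268-149774517 and chr9:97111042-97111291. Capitals mark the CRE in Slc25a36 and, in Slc25a33, the CRE half-site TGACG, which lies there in reverse complement.
Slc25a33: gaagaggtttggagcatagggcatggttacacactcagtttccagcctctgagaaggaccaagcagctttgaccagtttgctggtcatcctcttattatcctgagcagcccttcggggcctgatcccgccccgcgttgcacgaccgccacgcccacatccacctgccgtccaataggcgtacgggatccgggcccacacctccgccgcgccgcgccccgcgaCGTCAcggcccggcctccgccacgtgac
Slc25a36: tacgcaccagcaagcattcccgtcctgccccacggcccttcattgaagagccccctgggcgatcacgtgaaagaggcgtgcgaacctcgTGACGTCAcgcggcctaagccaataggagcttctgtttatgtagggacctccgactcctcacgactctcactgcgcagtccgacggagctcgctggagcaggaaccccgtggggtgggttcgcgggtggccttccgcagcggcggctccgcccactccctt
Slc25a36 held a full CRE 161 bases before its start, and Slc25a33 held a half-site 28 bases before its start. Of the 38 described carriers, 29 had a window in the RefSeq table. These 29 carriers had 38 windows, as some have several starts, and shares are per window. The full CRE was found in 2 of the 38 windows (Slc25a25 and Slc25a36). The half-site, also counted inside a full CRE, was found in 11 of the 38 windows, against 17.8% of all windows. The AP-1 letters were found in 2 of the 38 (Slc25a11 and Slc25a13), and the NF-kB pattern in 23 of the 38. Of the other called carriers, Slc25a22, which rose, held neither a CRE nor a half-site in any of its windows. Slc25a28, which fell, held a half-site 107 bases before its start. Carriers with a motif and carriers without one were both found among those that were not called.

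**Figure D2:**
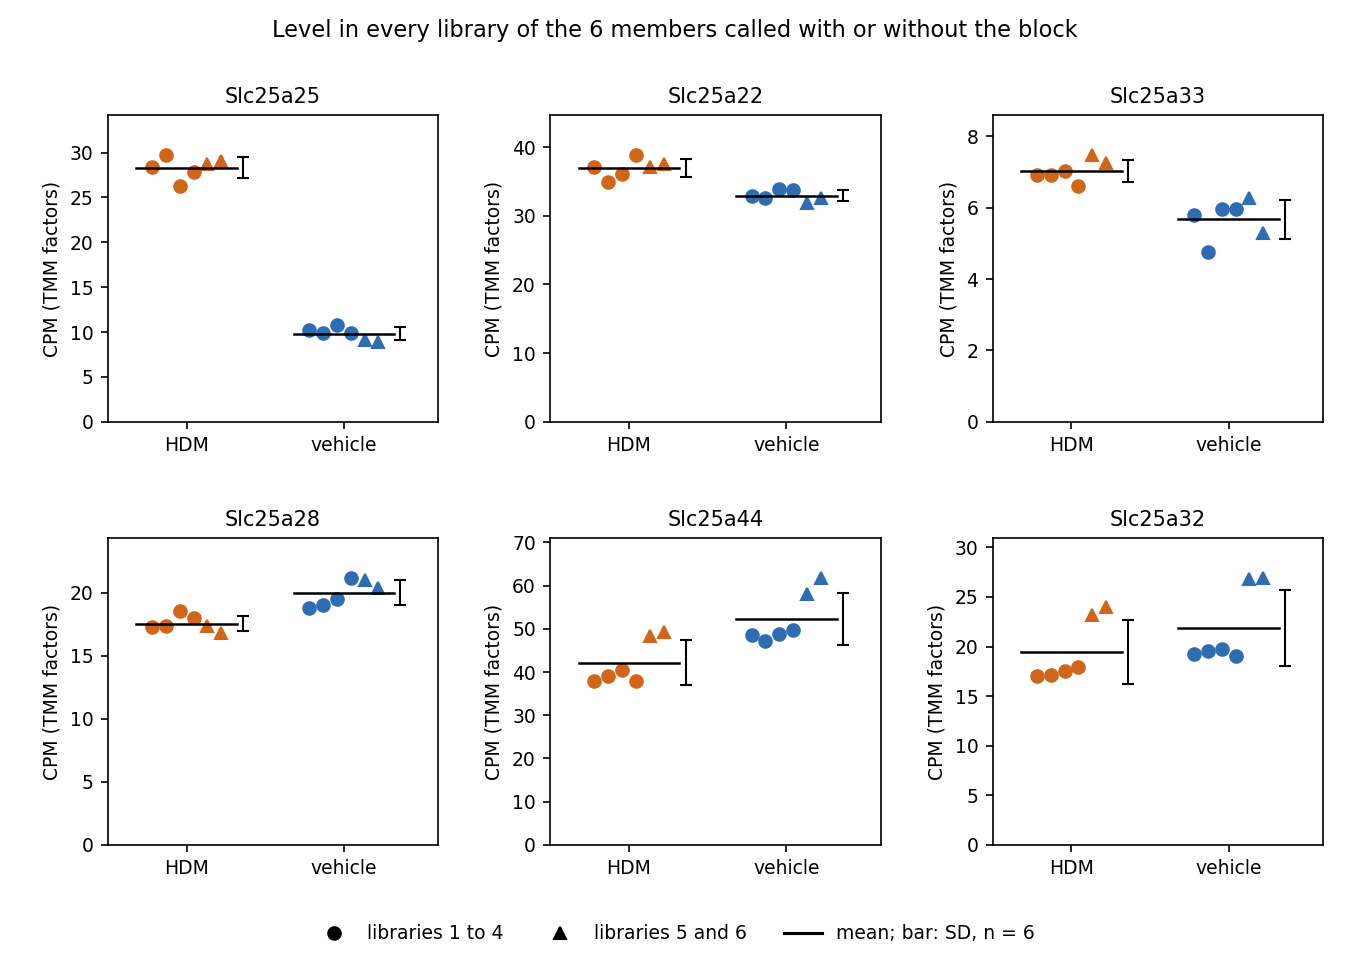
Level in CPM in each of the 12 libraries (HDM left, vehicle right) for the 4 called carriers and for Slc25a44 and Slc25a32; triangles are libraries 5 and 6, lines are means and bars are SD (n = 6). The groups do not overlap for Slc25a25, Slc25a22, Slc25a33 and Slc25a28, and overlap for Slc25a44 and Slc25a32, whose libraries 5 and 6 were the highest within each treatment.

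Of the 8 described carriers of nucleotides and phosphate, 2 rose and 6 were not called. Slc25a33 moves pyrimidine nucleotides into the matrix, where they serve mitochondrial DNA and RNA synthesis. Its level in HDM libraries 1 to 6 was 6.91, 6.91, 7.03, 6.60, 7.48 and 7.25 CPM, against 5.81, 4.75, 5.95, 5.98, 6.27 and 5.30 CPM in vehicle libraries 1 to 6. The lowest HDM library was above the highest vehicle library. The means were 7.03 ± 0.302 CPM with HDM and 5.68 ± 0.554 CPM with vehicle (SD, n = 6 each), a log2 fold change of 0.31 ± 0.07 (SE; edgeR adjusted p = 0.0192). Without libraries 5 and 6 the log2 fold change was 0.30 and the edgeR adjusted p was 0.0519, so the call was lost.

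The phosphate carrier and both ADP/ATP carriers expressed here supply the substrates of ATP synthase and exchange its product, and none of them was called. Slc25a3, the phosphate carrier, had 336, 329, 338, 331, 363 and 352 CPM in HDM libraries 1 to 6, against 340, 342, 340, 334, 343 and 351 CPM in vehicle libraries 1 to 6. Slc25a4 (ANT1) had 189, 183, 172, 187, 174 and 169 CPM in HDM libraries, against 182, 182, 174, 171, 188 and 179 CPM in vehicle libraries. Slc25a5 (ANT2) had 321, 323, 296, 302, 319 and 319 CPM in HDM libraries, against 325, 316, 309, 310, 316 and 322 CPM in vehicle libraries. The groups overlapped for all 3. Their mean levels were 341 ± 13.1 CPM with HDM and 342 ± 5.64 CPM with vehicle for Slc25a3, 179 ± 8.59 CPM with HDM and 179 ± 6.11 CPM with vehicle for Slc25a4, and 313 ± 11.3 CPM with HDM and 316 ± 6.43 CPM with vehicle for Slc25a5 (SD, n = 6 each). The 95% interval of the fold change ran from 0.954 to 1.05 for Slc25a3, from 0.947 to 1.06 for Slc25a4 and from 0.947 to 1.04 for Slc25a5. The sign of the log2 fold change of each of these 3 turned under at least 1 other setting, and it has no direction here.

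The remaining carriers of this group are relatives of Slc25a25 and Slc25a33. Slc25a24, another calcium-regulated ATP-Mg/phosphate carrier, averaged 148 ± 5.10 CPM with HDM and 144 ± 2.79 CPM with vehicle, with a log2 fold change of 0.03 and a 95% interval from -0.03 to 0.09. Slc25a23, the third of that kind, averaged 9.42 ± 1.12 CPM with HDM and 9.57 ± 1.05 CPM with vehicle, with a log2 fold change of -0.03 and an interval from -0.22 to 0.17. Slc25a36 averaged 57.9 ± 3.27 CPM with HDM and 56.4 ± 3.74 CPM with vehicle, with a log2 fold change of 0.04 and an interval from -0.07 to 0.14 (SD, n = 6 each). In these 3 the HDM and vehicle libraries overlapped.

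Carriers with the same cargo were compared directly by the ratio of their reads within a library, a value that no scaling between libraries can move. There were 9 such pairs among the described members, and the ratios were tested with a two-sided exact permutation test over the 924 ways of dividing 12 libraries into 6 and 6, whose smallest possible p is 0.00216, adjusted over the 9 pairs. Each pair called below holds a member already called in the edgeR fit. The ratios reuse the reads of that member and are no independent support for its call. The ratio of Slc25a25 to Slc25a24 was 0.189, 0.199, 0.185, 0.194, 0.198 and 0.187 in HDM libraries 1 to 6, against 0.0709, 0.0689, 0.0747, 0.0710, 0.0616 and 0.0611 in vehicle libraries 1 to 6. Slc25a25 thus gained on its more abundant relative within each of the 6 numbers, by 1.499 ± 0.05 on the log2 scale (SE; exact permutation p = 0.00216, adjusted p = 0.00649). Against Slc25a23 the ratio was 3.04 ± 0.402 in HDM libraries and 1.03 ± 0.0770 in vehicle libraries (SD, n = 6 each), a log2 difference of 1.56 ± 0.09 (SE) with the same exact p and adjusted p. The ratio of Slc25a33 to Slc25a36 was 0.122 ± 0.0124 in HDM libraries and 0.101 ± 0.00789 in vehicle libraries (SD, n = 6 each), a log2 difference of 0.28 ± 0.07 (SE; exact permutation p = 0.00433, adjusted p = 0.00974).

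Among the iron carriers, the ratio of Slc25a28 to Slc25a37 was 0.478, 0.440, 0.452, 0.459, 0.431 and 0.408 in HDM libraries 1 to 6, against 0.510, 0.505, 0.508, 0.483, 0.590 and 0.545 in vehicle libraries 1 to 6. Every HDM ratio was below every vehicle ratio, with a log2 difference of -0.23 ± 0.05 (SE; exact permutation p = 0.00216, adjusted p = 0.00649). The 5 other pairs had adjusted p-values of 0.651 to 0.760 in the exact permutation test: Slc25a4 over Slc25a5 was 0.572 ± 0.0323 with HDM and 0.566 ± 0.0158 with vehicle, and Slc25a39 over Slc25a40 was 18.3 ± 1.34 in HDM libraries and 18.1 ± 1.98 in vehicle libraries (SD, n = 6 each). With each library left out in turn, the 4 called ratios kept an adjusted exact p of at most 0.0195. Without libraries 5 and 6 they were 1.43 (Slc25a25 over Slc25a24), 1.47 (Slc25a25 over Slc25a23), 0.25 (Slc25a33 over Slc25a36) and -0.13 (Slc25a28 over Slc25a37) on the log2 scale, with an adjusted exact p of 0.0643. With 4 libraries against 4 the smallest exact p is 0.0286, and the 4 ratios stood at it, with no overlap between the treatments in libraries 1 to 4. The adjusted 0.0643 is that minimum with 4 of 9 pairs at it, which cannot pass the threshold. The test over 924 divisions ignores the library numbers. When treatments were swapped only within the 6 numbers, 64 arrangements with a smallest p of 0.0313, the 4 ratios stood at that minimum. Their adjusted exact p was 0.0703, again the minimum after adjustment with 4 of 9 pairs at it.

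**Figure D3:**
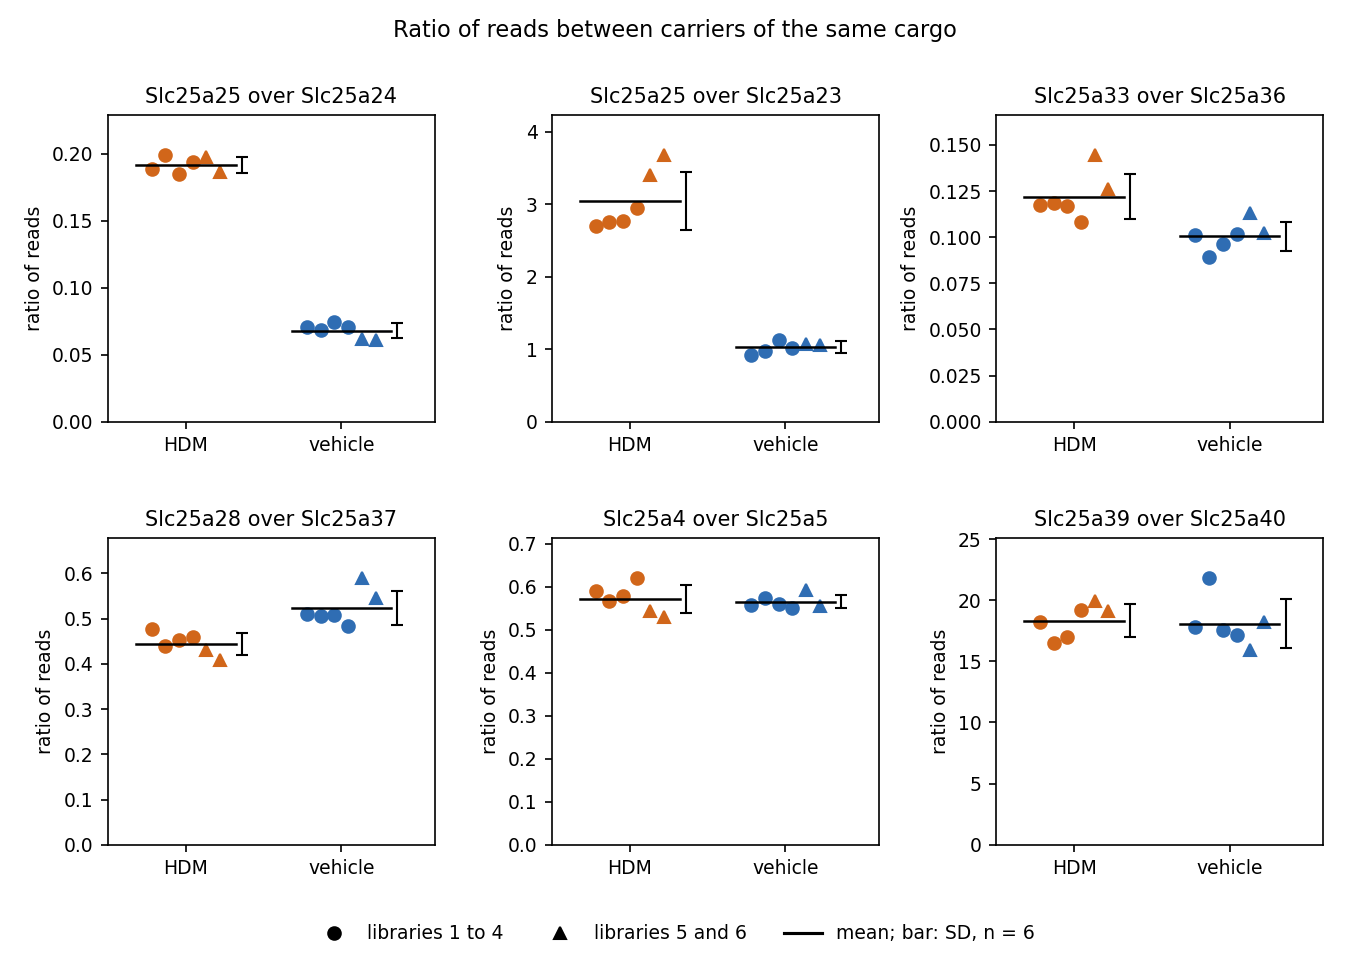
Ratio of reads between 2 carriers of the same cargo in each library (HDM left, vehicle right; triangles, libraries 5 and 6; lines, means; bars, SD, n = 6). The groups do not overlap for Slc25a25 over either relative and for Slc25a28 over Slc25a37. They overlap in part for Slc25a33 over Slc25a36, where HDM library 4 (0.108) is below vehicle library 5 (0.113), and more widely for Slc25a4 over Slc25a5 and Slc25a39 over Slc25a40.

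Of the 7 described carriers of carboxylates and of the malate-aspartate and related shuttles, 1 rose and 6 were not called. Slc25a22 brings glutamate into the matrix together with protons. Its level in HDM libraries 1 to 6 was 37.1, 34.9, 36.1, 38.8, 37.2 and 37.5 CPM, against 32.9, 32.6, 33.9, 33.8, 31.8 and 32.7 CPM in vehicle libraries 1 to 6. The groups did not overlap, and HDM was higher within each of the 6 numbers. The means were 36.9 ± 1.33 CPM with HDM and 32.9 ± 0.781 CPM with vehicle (SD, n = 6 each), a log2 fold change of 0.16 ± 0.03 (SE; edgeR adjusted p = 0.00793) with a fold interval from 1.07 to 1.18.

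Slc25a1, which exports citrate, had 57.4, 56.4, 57.2, 59.4, 51.3 and 49.8 CPM in HDM libraries 1 to 6, against 54.0, 55.7, 57.4, 58.6, 51.1 and 51.9 CPM in vehicle libraries 1 to 6. Slc25a10, the dicarboxylate carrier, had 63.2, 62.4, 58.6, 60.1, 46.4 and 43.8 CPM in HDM libraries, against 60.8, 62.5, 61.8, 59.4, 48.4 and 48.8 CPM in vehicle libraries. In both genes libraries 5 and 6 of either treatment were the lowest, and the treatments overlapped. Their log2 fold changes were 0.01 (95% interval -0.10 to 0.12) and -0.03 (-0.26 to 0.19). Slc25a11, which exchanges 2-oxoglutarate for malate, had 119, 120, 120, 119, 121 and 122 CPM in HDM libraries 1 to 6, against 117, 119, 117, 118, 116 and 115 CPM in vehicle libraries. HDM was higher within all 6 numbers, but the log2 fold change of 0.04 ± 0.02 (SE) was not called (edgeR adjusted p = 0.510). The aspartate/glutamate carriers Slc25a12 and Slc25a13 and the carnitine/acylcarnitine carrier Slc25a20 had log2 fold changes of -0.03, 0.01 and 0.04, with the largest bound of their fold intervals at 1.11.

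Of the 4 described carriers of iron and glutathione, 1 fell and 3 were not called. Slc25a28 is 1 of 2 mitoferrins, which bring iron into the matrix for heme and iron-sulfur cluster synthesis. Its level in HDM libraries 1 to 6 was 17.3, 17.4, 18.5, 18.0, 17.4 and 16.8 CPM, against 18.8, 19.0, 19.5, 21.1, 20.97 and 20.4 CPM in vehicle libraries 1 to 6. The highest HDM library was below the lowest vehicle library. The means were 17.6 ± 0.614 CPM with HDM and 19.98 ± 0.997 CPM with vehicle (SD, n = 6 each), a log2 fold change of -0.19 ± 0.04 (SE; edgeR adjusted p = 0.0192). The call was lost without vehicle library 4 (log2 fold change -0.16, edgeR adjusted p = 0.0504), with no filter on low counts (log2 fold change -0.19, adjusted p = 0.0574) and without libraries 5 and 6 (log2 fold change -0.14, adjusted p = 0.123).

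Slc25a37, mitoferrin 1, known for its high level in developing red cells, had 36.1, 39.5, 41.0, 39.2, 40.2 and 41.1 CPM in HDM libraries 1 to 6, against 36.9, 37.7, 38.4, 43.7, 35.6 and 37.4 CPM in vehicle libraries 1 to 6. It was not called (log2 fold change 0.04, 95% interval -0.06 to 0.15), while erythroid markers were near 0 in both groups, as given above. The glutathione carriers Slc25a39 and Slc25a40 averaged 176 ± 6.72 and 9.62 ± 0.673 CPM with HDM, against 178 ± 4.77 and 9.91 ± 0.937 CPM with vehicle (SD, n = 6 each). Neither was called.

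In the edgeR fit used for the calls, none of the 4 described amino acid carriers was called, and 1 had an unadjusted p under 0.05. DESeq2 called 1 (Slc25a44) and limma-voom called 0. With the replicate block, and with upper-quartile factors or total library size as the scaling, edgeR called Slc25a44 too. Slc25a44 carries branched-chain amino acids into mitochondria. Its level in HDM libraries 1 to 6 was 37.9, 39.0, 40.6, 38.04, 48.4 and 49.4 CPM, against 48.6, 47.1, 48.8, 49.7, 58.0 and 61.7 CPM in vehicle libraries 1 to 6. It was lower with HDM within each of the 6 numbers, by 0.26 to 0.39 on the log2 scale, but HDM libraries 5 and 6 reached the levels of vehicle libraries 1 to 4. The means were 42.2 ± 5.27 CPM with HDM and 52.3 ± 6.02 CPM with vehicle (SD, n = 6 each). The log2 fold change was -0.31 ± 0.09 (SE; edgeR adjusted p = 0.0696) without the block and -0.31 ± 0.03 (SE; edgeR adjusted p = 3.53e-07) with it. Within libraries 1 to 4 the log2 fold change was -0.32 (edgeR adjusted p = 6.21e-05) and within libraries 5 and 6 it was -0.30 (edgeR adjusted p = 1.26e-05).

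The other amino acid carriers are Slc25a15, which exchanges ornithine and citrulline for the urea cycle, Slc25a38, a glycine carrier that serves heme synthesis, and Slc25a29, a carrier of basic amino acids. Their log2 fold changes were 0.04, -0.03 and 0.18, with 95% intervals of -0.07 to 0.16, -0.19 to 0.13 and -0.21 to 0.58. The last interval is wide because Slc25a29 had 191 reads in the HDM libraries and 140 in the vehicle libraries.

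Without the replicate block, none of the 7 described cofactor carriers was called by edgeR, DESeq2 or limma-voom, and 0 had an unadjusted p under 0.05. With the replicate block, Slc25a32, which carries folate into mitochondria, was called as lower. Its level in HDM libraries 1 to 6 was 16.99, 17.1, 17.5, 17.9, 23.2 and 24.0 CPM, against 19.2, 19.5, 19.8, 19.1, 26.8 and 26.9 CPM in vehicle libraries 1 to 6. Within each number HDM was lower, by 0.09 to 0.21 on the log2 scale, a difference smaller than that between libraries 5 and 6 and the others. The log2 fold change was -0.16 ± 0.13 (SE; edgeR adjusted p = 0.733) without the block and -0.17 ± 0.03 (SE; edgeR adjusted p = 0.00276) with it. Without libraries 5 and 6 it was -0.16 (edgeR adjusted p = 0.0366), and within libraries 5 and 6 it was -0.18 and not called (edgeR adjusted p = 0.0635).

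Among the other cofactor carriers, Slc25a17, a carrier of peroxisomes for coenzyme A and FAD, averaged 34.5 ± 1.56 CPM with HDM and 32.8 ± 1.66 CPM with vehicle (SD, n = 6 each), was higher with HDM within all 6 numbers and was not called (log2 fold change 0.07, edgeR adjusted p = 0.554). The NAD carrier Slc25a51, the S-adenosylmethionine carrier Slc25a26 and the coenzyme A carriers Slc25a16 and Slc25a42 had log2 fold changes of -0.07, -0.06, -0.04 and -0.06. The 4 fold intervals lay between 0.817 and 1.13.

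The 3 described members related to uncoupling proteins and the 5 that are orphans or act elsewhere were not called by edgeR, DESeq2 or limma-voom, and 0 of these 8 had an unadjusted p under 0.05. Slc25a14, Slc25a30 and Slc25a27 had log2 fold changes of 0.14, -0.05 and -0.15. Slc25a46, a protein of the outer membrane with a part in mitochondrial shape, averaged 65.9 ± 2.58 CPM with HDM and 64.1 ± 3.29 CPM with vehicle (SD, n = 6 each). The orphans Slc25a35, Slc25a43, Slc25a45 and Slc25a53 had log2 fold changes of 0.01, 0.08, -0.02 and -0.23. That of Slc25a53 had a 95% interval from -0.49 to 0.03 and rested on 300 reads with HDM and 293 with vehicle.

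The intervals show how much change the data leave room for. Of the 34 members not called, 26 had a 95% interval within a 1.2-fold change in either direction and 33 within a 1.5-fold change. The exception was Slc25a27, with a fold interval from 0.641 to 1.27. The HDM and vehicle libraries did not overlap for 3 members that were higher and 1 that was lower, the same 4 that were called, and for 2.32% and 2.07% of all tested genes in those directions. With the replicate block, 3 members were called as higher and 3 as lower, a share of the 38 near the 14.7% of all tested genes called in that fit.

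The members nearest the level threshold were measured with few reads. Just above it, Slc25a27 had 0.390, 0.781, 0.653, 0.530, 0.378 and 0.307 CPM in HDM libraries 1 to 6, against 0.608, 0.491, 0.449, 0.485, 0.621 and 0.654 CPM in vehicle libraries 1 to 6. Slc25a29 had 0.623, 0.879, 0.854, 0.530, 0.512 and 0.502 CPM in HDM libraries, against 0.504, 0.586, 0.520, 0.485, 0.725 and 0.605 CPM in vehicle libraries. Slc25a53 had 0.922, 0.952, 1.00, 0.988, 0.957 and 1.28 CPM in HDM libraries, against 1.07, 1.05, 1.16, 1.29, 1.35 and 1.28 CPM in vehicle libraries. In all 3 the treatments overlapped. Just below it, Slc25a18, a second glutamate carrier, had 0.357, 0.757, 0.402, 0.554, 0.334 and 0.307 CPM in HDM libraries, against 0.776, 0.665, 0.354, 0.350, 0.414 and 0.508 CPM in vehicle libraries. Slc25a47 had 0.241, 0.0977, 0.201, 0.265, 0.289 and 0.307 CPM in HDM libraries, against 0.189, 0.206, 0.118, 0.108, 0.207 and 0.290 CPM in vehicle libraries. Slc25a31 (ANT4), an ADP/ATP carrier of male germ cells, had 0.0499, 0.0733, 0.1004, 0.121, 0.133 and 0.223 CPM in HDM libraries, against 0.105, 0.127, 0.0945, 0.108, 0.0518 and 0.0968 CPM in vehicle libraries. A single library can hold fewer than 3 reads of Slc25a31, so its values are mostly counting error. The others below the threshold were Slc25a2 (20 reads with HDM, 13 with vehicle), Slc25a34 (7 with HDM, 14 with vehicle), Slc25a41 (3 with HDM, 0 with vehicle), Slc25a48 (2 with HDM, 2 with vehicle), Slc25a54 (3 with HDM, 2 with vehicle) and Slc25a21, without a read. A count of 0 allows up to 3 reads, or 0.0251 to 0.152 CPM depending on the library, counting error only.

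Levels between carriers were compared per length, as CPM divided by the summed exon length in kb. On that scale Slc25a5 was the highest of the 38 described members, at 253 ± 9.11 CPM per kb with HDM and 255 ± 5.18 CPM per kb with vehicle (SD, n = 6 each). It was followed by Slc25a3, at 175 ± 6.75 CPM per kb with HDM and 176 ± 2.90 CPM per kb with vehicle, and by Slc25a39, at 104 ± 3.99 CPM per kb with HDM and 105 ± 2.83 CPM per kb with vehicle. Slc25a4 had 93.0 ± 4.46 CPM per kb with HDM and 93.0 ± 3.18 CPM per kb with vehicle, Slc25a11 had 70.3 ± 0.706 CPM per kb with HDM and 68.4 ± 0.921 CPM per kb with vehicle, and Slc25a24 had 43.0 ± 1.49 CPM per kb with HDM and 42.1 ± 0.812 CPM per kb with vehicle. Carriers of phosphate, ADP/ATP, glutathione and 2-oxoglutarate thus made up the top of the order in both treatments. The lowest of the 38 was Slc25a27, at 0.129 ± 0.0465 CPM per kb with HDM and 0.140 ± 0.0219 with vehicle. Each step from Slc25a5 down to Slc25a1, the seventh, was larger than the sum of the SDs of both neighbours in vehicle libraries. Of the 37 neighbouring pairs in all, 22 differed by less than that sum, among them Slc25a10 at 28.2 ± 3.24 and Slc25a45 at 26.6 ± 2.38 CPM per kb with vehicle. Slc25a25 stood at 6.87 ± 0.289 CPM per kb with HDM and 2.38 ± 0.168 with vehicle, rank 32 of 38 in vehicle libraries, so the carrier with the largest change remained far below Slc25a24 of the same cargo.

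**Figure D4:**
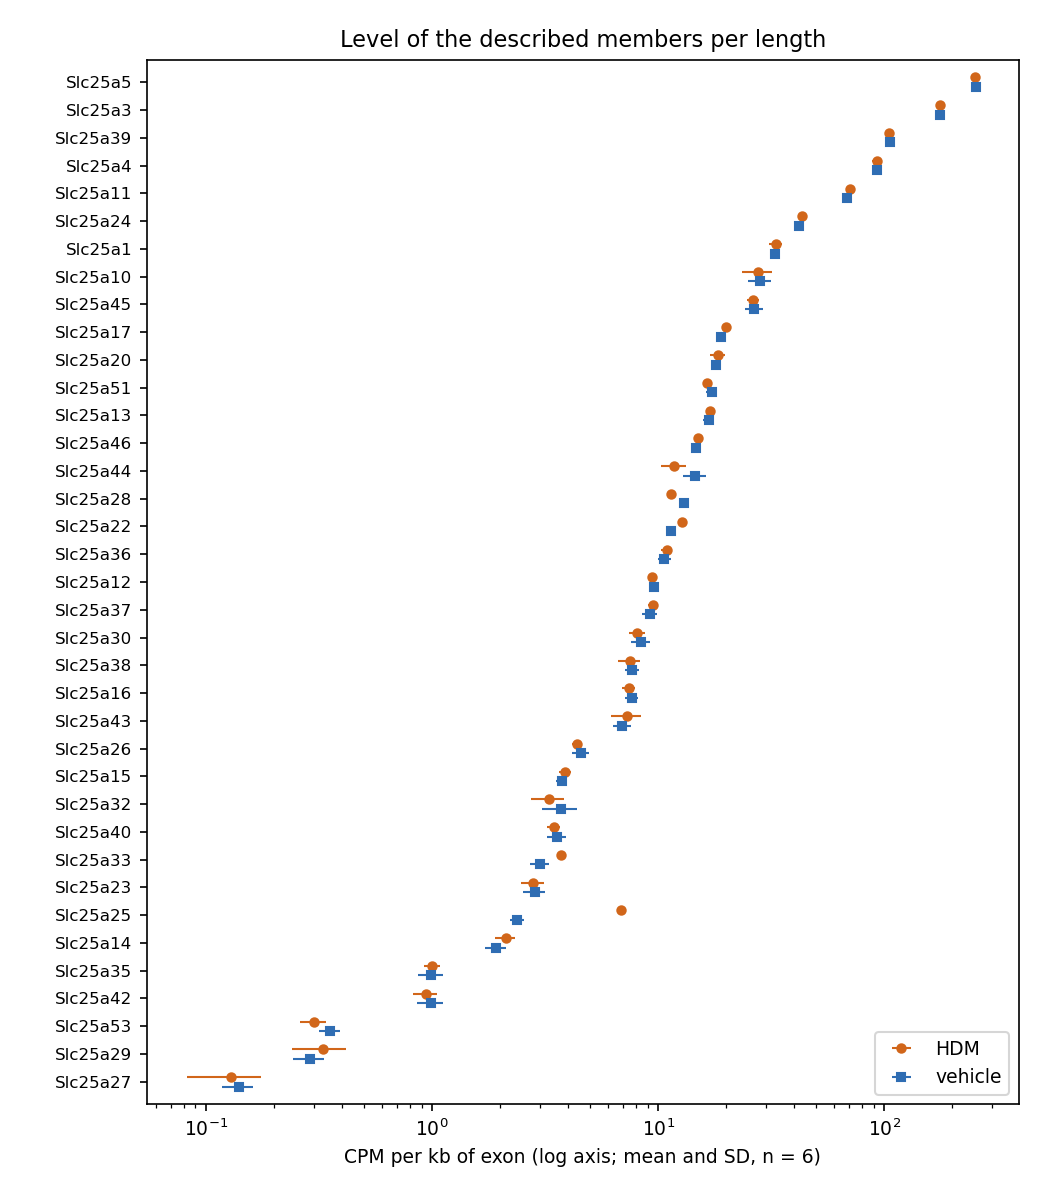
Mean level of 37 of the 38 described carriers in CPM per kb of exon on a log axis, HDM (orange circles) and vehicle (blue squares), with SD over 6 libraries. Only for Slc25a25 are the 2 symbols of a row widely separated, at 6.87 and 2.38 CPM per kb.

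Differences between libraries 5 and 6 and libraries 1 to 4 were larger for several carriers than those between treatments. In 11 of the 38 members, libraries 5 and 6 of both treatments lay on the same side of all of libraries 1 to 4, against 36.4% of all tested genes, as given above. They were higher for 7 members, Slc25a3, Slc25a20, Slc25a30, Slc25a32, Slc25a43, Slc25a44 and Slc25a51, and lower for 4, Slc25a1, Slc25a10, Slc25a23 and Slc25a45. The largest was Slc25a32, where libraries 5 and 6 exceeded libraries 1 to 4 by 0.44 on the log2 scale with HDM and 0.47 with vehicle. In the opposite direction stood Slc25a10, with -0.44 with HDM and -0.33 with vehicle. These are descriptions of a split that the labels do not explain, and its cause was not tested.

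**Figure D5:**
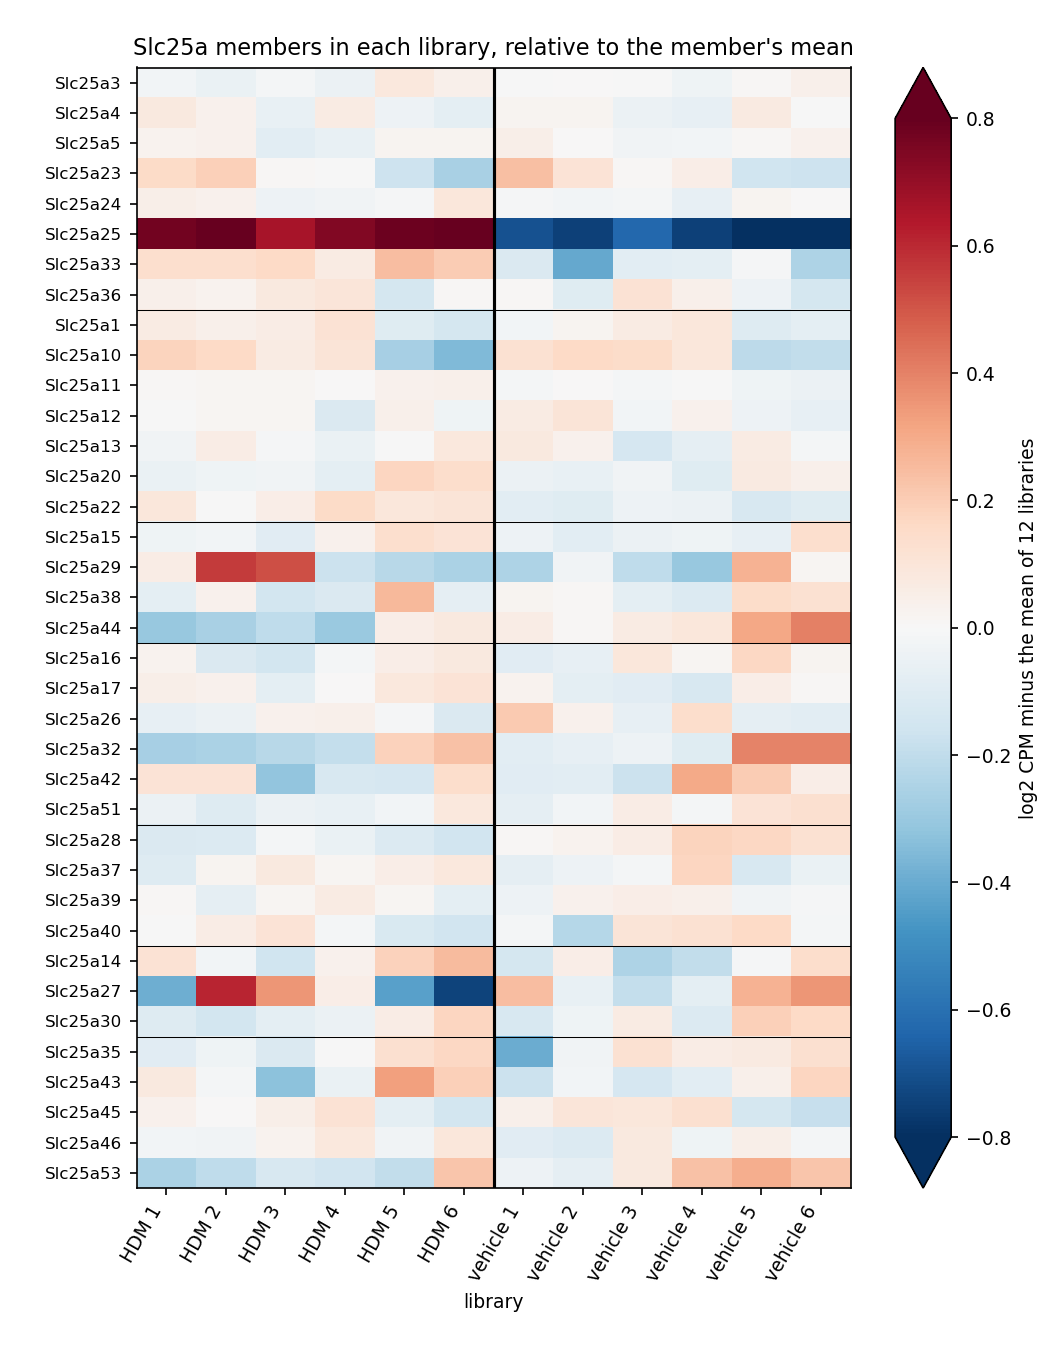
Log2 CPM of 37 of the 38 described carriers in each library minus its mean over the 12 libraries (HDM left, vehicle right; red, above the mean; blue, below). Slc25a25 separates the treatments, and Slc25a32, Slc25a44 and Slc25a10 separate libraries 5 and 6 from the others in both treatments.

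Other genes tied to these carriers were counted from lists. The symbol rule left out proteins of the same carrier fold that go by other symbols. Of 3 such proteins tested (Ucp2, Mtch1 and Mtch2), 0 were called by edgeR, DESeq2 or limma-voom, and 0 had an unadjusted p under 0.05. Ucp2, which in macrophages is known to restrain oxidant production, averaged 582 ± 69.9 CPM with HDM and 585 ± 75.2 CPM with vehicle (SD, n = 6 each). Of 25 tested mitochondrial transporters and channels of other families, 0 were called by edgeR, DESeq2 or limma-voom, and 1 had an unadjusted p under 0.05. Vdac1, the outer membrane pore, averaged 251 ± 5.82 CPM with HDM and 248 ± 1.99 CPM with vehicle (SD, n = 6 each). With the replicate block, Slc8b1, the mitochondrial sodium/calcium exchanger, was called as lower (log2 fold change -0.10, edgeR adjusted p = 0.0323). Of 13 tested genes that import carrier proteins through the TIM22 complex, 0 were called by the 3 tools and 0 had an unadjusted p under 0.05. With the block, Timm29, a TIM22 subunit, was called as lower (log2 fold change -0.15, edgeR adjusted p = 0.00758). Over all tested genes, edgeR called 5.37% without the block and 14.7% with it.

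Of 32 tested enzymes that make or use the carried substrates, 1 rose and 2 fell, beside 5.37% of all tested genes called. Acod1, which makes itaconate from a citrate cycle intermediate, averaged 41.4 ± 3.76 CPM with HDM and 31.5 ± 2.84 CPM with vehicle (SD, n = 6 each; log2 fold change 0.40 ± 0.07, SE; edgeR adjusted p = 0.00363). Idh1, the cytosolic isocitrate dehydrogenase, averaged 127 ± 1.94 CPM with HDM and 138 ± 3.48 CPM with vehicle (SD, n = 6 each; log2 fold change -0.12 ± 0.02, SE; edgeR adjusted p = 0.0137). Mat2a, which makes S-adenosylmethionine, averaged 151 ± 6.61 CPM with HDM and 181 ± 13.5 CPM with vehicle (SD, n = 6 each; log2 fold change -0.26 ± 0.05, SE; edgeR adjusted p = 0.00714). Acly, which splits exported citrate, was not called (log2 fold change -0.03, edgeR adjusted p = 0.926), as Slc25a1 was not. With the block, 4 of these enzymes were called as higher and 2 as lower, beside 14.7% of all tested genes. Of 12 tested regulators of mitochondrial genes, 0 were called by the 3 tools and 1 had an unadjusted p under 0.05. With the block, Crtc2, a coactivator of CREB, was called as higher (log2 fold change 0.13, edgeR adjusted p = 0.0178), and Pprc1 and Nrf1 as lower (-0.08, adjusted p = 0.0269, and -0.12, adjusted p = 0.0209).

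Shared sequence limits some of these values. In the GENCODE M21 annotation (GRCm38), exons of 10 of the 38 members overlap those of another gene, 9 of them on the opposite strand, and the strand setting of the counting is not given in the sources used here. Exons of Slc25a25 overlap those of Naif1 over 379 bp on the opposite strand. Naif1 averaged 3.65 ± 0.442 CPM with HDM and 3.41 ± 0.467 CPM with vehicle (SD, n = 6 each; log2 fold change 0.10, edgeR adjusted p = 0.895), a difference far smaller than that of Slc25a25. Slc25a33 overlaps an antisense gene model over 281 bp, which has no values here. The longest overlap is that of Slc25a35 with Rangrf, 820 bp on the opposite strand. Rangrf held 3 reads in all libraries together, and the effect of the overlap on Slc25a35 was not tested. Slc25a5 has processed copies in the genome, and the table's Slc25a5-ps row, not a member, held 3 reads, so reads shared with near-identical copies may be missing from Slc25a5.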

How the data were processed

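Stranded, poly(A)-selected libraries were made from column-purified, DNase-treated RNA, per the labels' protocols. The authors deposited raw counts per gene, 50559 symbols by 12 libraries, with 0 columns lacking a sample. The submitters' processing notes list STAR 2.6.0c and featureCounts 2.0.6 with Subread, after FastQC 0.12.1, cutadapt 4.5 and Trim Galore 0.6.10. They name both mm39 and GRCm38 without saying which was used for counting. Coordinates printed here come from the RefSeq promoter table (GRCm38.p6), not from the counts.

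Counts were tested in R 4.3.3 with edgeR 4.0.16 (quasi-likelihood F test, two-sided, TMM factors, default filterByExpr filter, treatment as the only term), and the procedure was checked on simulated data. Those data were drawn without the split between libraries described above, so the check does not cover it. The 38 described members and Slc25a18 passed the filter. Fold changes are HDM over vehicle, and the SE is the absolute log2 fold change divided by the square root of F. CPM in the text use TMM factors, while the threshold of 0.5 CPM used column totals. Lengths are summed exons of GENCODE M21 (GRCm38). Promoter windows were matched by symbol, and motifs were searched on both strands. Alternatives were DESeq2 1.42.0, limma-voom (limma 3.58.1), other scalings and filters, the replicate block, and left-out libraries.

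Both groups carry the numbers 1 to 6. Each library's deviation from its group mean in log2 CPM correlated between same-numbered libraries at 0.367 to 0.672, all above the bound of 0.1, and the numbers were taken to pair libraries. HDM libraries 2 and 6 correlated most with the vehicle library of their own number. HDM libraries 1, 3, 4 and 5 each correlated more with a vehicle library of another number. Those values were 0.511 (HDM 1 with vehicle 2), 0.413 (3 with 4), 0.483 (4 with 3) and 0.704 (5 with 6). The correlations thus show a grouping of libraries 1 to 4 apart from 5 and 6, and do not establish pairing by number. Pairing is an assumption that the labels do not state, and comparisons within numbers rest on it.

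Named with values in each library are members called with or without the block, 7 others fixed by name and the 3 on either side of the level threshold. Members, lists and this rule were chosen with earlier results of these data known. The ratio comparison and the promoter windows were added after values had been seen. The counts include 1 described member that is not reported here.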

Additional observations from a re-analysis of the deposited data

Results flagged for a closer look

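Of 96 groups of 6 libraries checked for a value far from the other 5 (counted reads, the 38 described members and the 9 ratios in each treatment), 5 were picked out. The measure was the gap to the nearest library as a share of the range. If the groups were independent, chance alone would pick out about 1 group in 20, which is about as many. The groups share libraries, and the ratios reuse the members' reads, so that rate is a rough guide and does not bear on any single group. HDM library 1 held 119.71 M counted reads, against 19.8 to 46.4 M in the other HDM libraries. Slc25a53 had 1.28 CPM in HDM library 6, against 0.922 to 1.00 CPM in the other HDM libraries. Slc25a15 had 14.4 CPM in vehicle library 6, against 12.3 to 12.8 CPM in the other vehicle libraries. Slc25a35 had 2.77 CPM in vehicle library 1, against 3.58 to 3.99 CPM in the other vehicle libraries. Slc25a37 had 43.7 CPM in vehicle library 4, against 35.6 to 38.4 CPM in the other vehicle libraries. Vehicle library 4 is also the library without which the call of Slc25a28 was lost.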

How the results depend on the processing

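Slc25a25 and Slc25a22 kept their call under the 10 other settings and with each library left out. Slc25a33 lost its call only without libraries 5 and 6. With the replicate block 1990 genes were called, and in libraries 5 and 6 alone 1139, against 727. Against 1 member called as lower, there were 2 with upper-quartile factors, total library size, DESeq2, without libraries 5 and 6 and in libraries 5 and 6 only, 3 with the replicate block and 0 with no filter on low counts, where Slc25a28 had an adjusted p of 0.0574. With 1 library left out the number lower ran from 0 to 2, the number higher stayed at 3, and genes called ran from 561 to 694. Slc25a28 was lost without vehicle library 4, and Slc25a44 was gained without HDM library 5 (adjusted p = 0.0463) or HDM library 6 (adjusted p = 0.0328). The cause of these shifts was not tested.

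Members and ratios near 0 that were not called changed sign. The log2 fold change of Slc25a3 was 0.000888 with RLE factors, 0.00382 with genes of at least 1 CPM, 0.000936 with DESeq2 and 0.0439 in libraries 5 and 6 only. That of Slc25a4 was -0.0151 with upper-quartile factors, -0.0178 with total size, -0.000724 with no filter, -0.00124 with limma-voom and -0.0884 in libraries 5 and 6 only. That of Slc25a1 was -0.00481, -0.00787 and -0.0259 with upper-quartile factors, total size and libraries 5 and 6 only. Slc25a5 was 0.00422 in libraries 5 and 6 only. Without libraries 5 and 6, Slc25a10 was 0.00482, Slc25a37 -0.0115, Slc25a16 over Slc25a42 -0.0045 and Slc25a39 over Slc25a40 -0.0627. With 1 library left out, log2 values ran from -0.0204 to 0.0146 (Slc25a3), -0.0162 to 0.0184 (Slc25a4), -0.0202 to 0.0045 (Slc25a5), -0.00621 to 0.0413 (Slc25a1) and -0.0738 to 0.0302 (Slc25a10), and in ratios from -0.0104 to 0.0346 (Slc25a4 over Slc25a5), -0.0251 to 0.0855 (Slc25a16 over Slc25a42), -0.0978 to 0.00841 (Slc25a23 over Slc25a24) and -0.0112 to 0.0786 (Slc25a39 over Slc25a40). Depth limits Slc25a27, Slc25a29 and Slc25a53, with at most 300 reads in a group.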
